A study of Mus musculus with 2 samples.

Results

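Desmosomes are the junctions that join the keratin filaments of neighbouring keratinocytes (KCs). The 10 genes described here encode their main parts in the epidermis and were chosen by symbol from the 27998 genes of the matrices, in which all 10 were found. They are the desmogleins Dsg1a, Dsg2 and Dsg3, the desmocollins Dsc1, Dsc2 and Dsc3, the plakin Dsp, and the armadillo proteins Jup, Pkp1 and Pkp3. The cells came from the epidermis of 2 male C57BL/6J mice at postnatal day 0, both from a line that lacks Chrm3 (KO mice), which encodes a muscarinic receptor for acetylcholine. The sources name no Cre or promoter that would limit the loss to keratinocytes. Each mouse gave 1 single-cell RNA library, made from epidermal cells that were released overnight in a separation buffer, filtered and cleared of dead cells. Wild-type epidermis was not analysed here. The values below are therefore levels in KO skin, with no comparison of genotypes.

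Desmogleins and desmocollins are cadherins whose outer parts bind those of the next cell. Inside the cell, plakoglobin (Jup) and the plakophilins hold the cadherin tails, and desmoplakin (Dsp) ties them to keratin. Each cadherin family has several isoforms, and in stratified skin different isoforms are known to prevail in the lower and the upper layers. Dsg1 is best known as the target of staphylococcal exfoliative toxin and of the antibodies of pemphigus foliaceus, and Dsg3 as the target of those of pemphigus vulgaris.

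A barcode was kept if it had between 900 and 7700 genes and less than 10% of its UMIs (unique molecular identifiers, which count each captured transcript once) from mitochondrial genes. This left 7607 cells in KO mouse 1 and 11881 in the other animal, KO mouse 2, with medians of 10480 and 10577 UMIs. Clustering gave 23 clusters, of which 21 took a name from marker lists and formed 18 classes. A name therefore means cells like that type. The interfollicular epidermis (IFE) held 3 basal classes (resting, S-phase and G2/M), cells in transition that had basal and suprabasal keratins together, differentiated cells led by Krt1 and Krt10, and 109 terminally differentiated cells led by late cornified envelope genes. One of the 3 resting basal clusters had the follicle marker Lef1 and no basal marker among its 10 leading genes, although all 7 basal markers were enriched in it. Without this cluster all calls on the 10 genes were as with it, except that Dsg3 also passed the test as lower in dividing basal cells. The other classes were 3 of hair follicle KCs (resting, S-phase, G2/M), the upper follicle, the inner root sheath and hair shaft, sebaceous, Merkel, melanocyte, dividing melanocyte, Langerhans, T and dermal cells. Transcripts counted as Chrm3 were rare, with 13 and 19 UMIs in all kept cells, or 0.137 and 0.128 CPM (a count scaled to a fixed UMI total). The libraries shared 127 cell barcodes, of which 34 were kept in both, and every call on the 10 genes was the same without them.

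Levels are given as CPM, a gene's share of all UMIs of a class in 1 mouse, in counts per 1000000, with mouse 1 first. UMIs were counted near the 3′ ends of transcripts, so no length correction applies, and a gene whose 3′ end was missed by the counting would appear low. In tests, the UMIs were summed per mouse and class and compared by the quasi-likelihood test of edgeR, and p-values were adjusted over all genes tested (Benjamini-Hochberg). A p-value from these sums measures only the spread between 2 mice, pooled over all classes of a fit (12 sums in the IFE fit and 36 in the other). The main fit had no term for the mouse. It treats classes of the same animal as independent, so even very small p-values rest on 2 animals. The IFE comparisons share 1 fit of 11869 genes and the others 1 fit of 14226 genes.

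Together the 10 genes took 2018 and 1882 CPM in resting basal cells, 4100 and 3843 CPM in the transition, and 5395 and 5392 CPM in differentiated cells. In terminally differentiated cells the sum was 1899 and 2036 CPM. The resting hair follicle had 1112 and 1122 CPM, and the upper follicle 3772 and 3322 CPM. Differentiated IFE thus stood highest in both mice. The transition and the upper follicle came next. Both values of the transition lay above both of the upper follicle. Their means differed by less than the mice did within the upper follicle. Melanocytes, pigment cells that are not keratinocytes, still had 150 and 194 CPM of the 10 genes. The level in melanocytes is given beside low values, as that of cells that should lack these transcripts in the same libraries. Dividing melanocytes (466 and 643 CPM), Langerhans cells (406 and 365 CPM) and T cells (446 and 656 CPM) had more than resting melanocytes, and the source of this RNA was not tested.

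**Figure D1:**
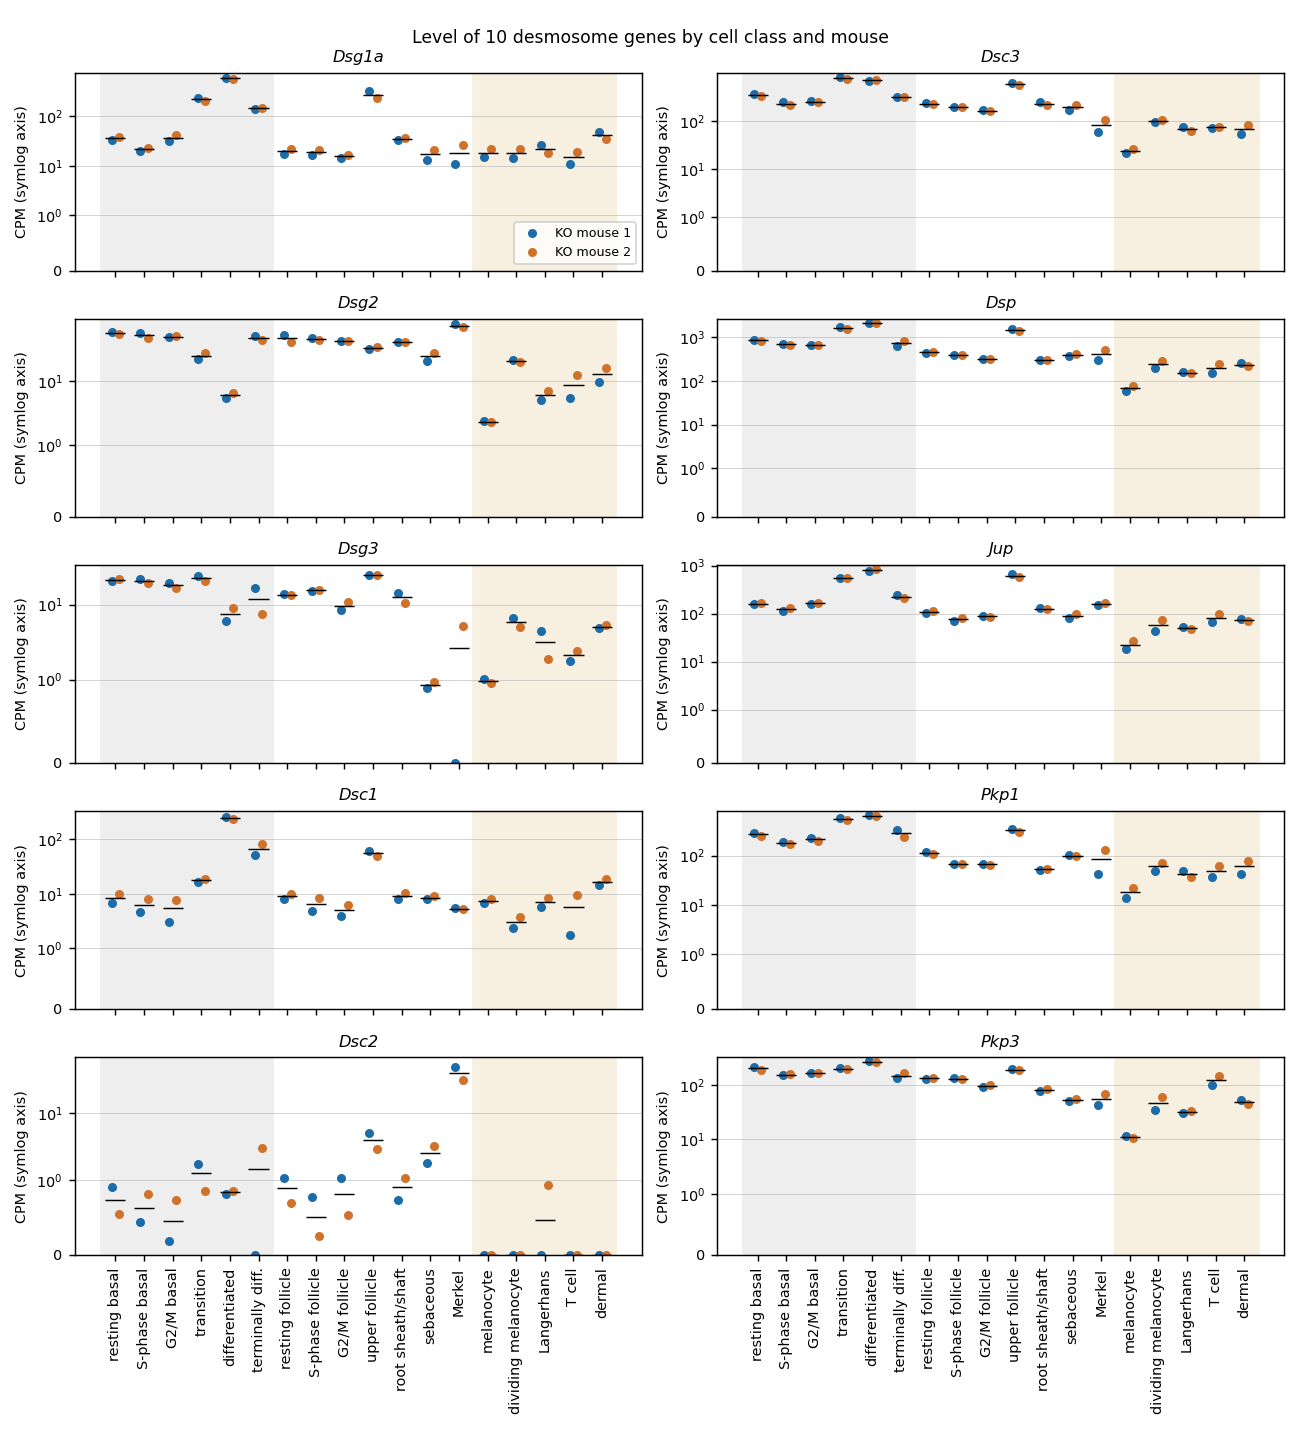
Level of each of the 10 desmosome genes in 18 cell classes, as CPM on a symmetric log axis (linear below 1 CPM). Blue and orange points are KO mouse 1 and KO mouse 2, black lines their means, the grey band marks the IFE classes and the tan band cells that are not KCs. Dsg1a and Dsc1 peak in differentiated IFE at 581 and 247 CPM on average, where Dsg2 and Dsg3 are at 6.01 and 7.51 CPM.

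Among the desmogleins, Dsg1a rose and Dsg2 fell across the IFE, and Dsg3 fell only at the later step. Dsg1a stood at 33.6 and 37.1 CPM in resting basal cells, at 233 and 197 CPM in the transition, and at 595 and 568 CPM in differentiated cells. The classes did not overlap, and the log2 fold change was 2.69 ± 0.12 (SE, adjusted p = 6.53e-09) from resting basal to transition and a further 1.54 ± 0.11 (adjusted p = 2.91e-07) to differentiated cells. Melanocytes had 15.2 and 21.3 CPM of Dsg1a and Langerhans cells 25.9 and 18.1 CPM, below the basal level in both mice. Dermal cells had 48.3 and 34.7 CPM, from 10 and 13 UMIs, which overlaps the basal level, so the basal level of Dsg1a is not clearly above that of cells that are not KCs.

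Dsg2, the desmoglein that simple epithelia also use, had the opposite order. Its level was 57.6 and 52.8 CPM in resting basal cells, 21.9 and 27.4 CPM in the transition and 5.48 and 6.53 CPM in differentiated cells, against 2.37 and 2.29 CPM in melanocytes. It fell by 1.05 ± 0.12 on the log2 scale to the transition (adjusted p = 2.02e-05) and by 1.94 ± 0.18 from there to differentiated cells (adjusted p = 2.34e-06). Every basal value of Dsg2 lay above every transition value, and those above every differentiated value.

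Dsg3 was flat at the first step. It had 20.8 and 21.9 CPM in resting basal cells and 24.4 and 20.9 CPM in the transition, which overlapped (log2 fold change 0.17 ± 0.14, adjusted p = 0.398). In differentiated cells it was at 6.09 and 8.93 CPM, lower by 1.46 ± 0.19 than in the transition (adjusted p = 5e-05). Its level in melanocytes was 1.02 and 0.953 CPM. With only cells under 5% mitochondrial UMIs, the fall of Dsg3 from resting basal to differentiated cells shrank from a log2 fold change of -1.29 to -0.38 (adjusted p = 0.236). Those cells were clustered anew and no transition class formed among them, so the differentiated class compared may differ in make-up. The count of Dsg3 may also depend on the annotation used by the authors, which was not given in the sources used here: the gene's 3′ end lies 6149 bases apart in GENCODE M21 and RefSeq, against at most 5 bases for 7 of the other 9 genes, 102 for Jup and 713 for Dsc1.

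The 6 cadherin genes lie side by side on chromosome 18 of GRCm38, with Dsg1b, Dsg1c and Dsg4, between 19960930 and 20604521. Dsc3, Dsc2 and Dsc1 are on the minus strand, and the desmogleins on the plus strand. Dsg1a (20310811 to 20343350), Dsg1b and Dsg1c are close copies, and 23.2% of the 91-base windows of the longest Dsg1a transcript also occur in Dsg1b and 10.4% in Dsg1c. In the last 400 bases, where most UMIs should be counted, none of 310 windows was shared. Dsg1b followed Dsg1a at a lower level, with 3.71 and 5.14 CPM in resting basal cells and 94.0 and 86.8 CPM in differentiated cells, a log2 fold change of 4.51 ± 0.20 (adjusted p = 4.35e-10). Dsg1c had at most 4 UMIs in any class and mouse, and Dsg4, a desmoglein of the hair shaft, at most 2.

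Among the desmocollins, Dsc3 was the main isoform in every IFE class, and Dsc1 appeared late. Dsc3 had 354 and 326 CPM in resting basal cells, 809 and 750 CPM in the transition and 678 and 703 CPM in differentiated cells. It rose by a log2 fold change of 1.29 ± 0.09 at the first step (adjusted p = 1.91e-07) and did not pass the test at the second (-0.07 ± 0.09, adjusted p = 0.587). The transition and differentiated classes are therefore not ordered for Dsc3 beyond the spread between mice.

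Dsc1 had 6.79 and 9.93 CPM in resting basal cells, which is not clearly above the level of melanocytes (6.77 and 8.20 CPM). Dividing melanocytes had less (2.39 and 3.71 CPM, from 4 and 11 UMIs). The source of these transcripts was not tested. In the transition Dsc1 had 16.6 and 18.6 CPM, above resting basal cells and melanocytes. This is the level of dermal cells (14.5 and 18.7 CPM, from 3 and 7 UMIs). In differentiated cells it had 255 and 240 CPM, a log2 fold change of 3.91 ± 0.23 over the transition (adjusted p = 6.59e-08). Most of the gain of Dsc1 thus fell on the second step, where Dsc3 no longer rose. On the log2 scale the second step was the smaller of the Dsg1a steps, and in CPM it was the larger.

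Dsc2, the desmocollin found in most other epithelia and in the heart, was close to absent in the IFE. It had 13 and 14 UMIs in all resting basal cells, or 0.909 CPM (exact 95% Poisson interval 0.484 to 1.56) and 0.549 CPM (0.300 to 0.922). Differentiated cells had 4 and 5 UMIs (0.813 and 0.859 CPM). No comparison between IFE stages passed for Dsc2, with standard errors from 0.49 to 1.32 on the log2 scale, and at this depth smaller changes were not detectable. Melanocytes had 0 Dsc2 UMIs. A floor of 3 UMIs, which is not an exact interval, would be 1.02 and 0.572 CPM there. The Poisson intervals cover counting error only.

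Dsp, the most abundant of the 10, had 879 and 833 CPM in resting basal cells, 1661 and 1552 CPM in the transition and 2142 and 2125 CPM in differentiated cells. It rose by 1.00 ± 0.12 (adjusted p = 2.01e-05) and then by 0.52 ± 0.12 (adjusted p = 0.0037) on the log2 scale. Jup had 158 and 163 CPM, 551 and 545 CPM, and 786 and 842 CPM in the same classes. Its rises of 1.87 ± 0.09 at the first step (adjusted p = 6.97e-09) and 0.67 ± 0.08 at the second (adjusted p = 3.1e-05) both passed the test. Melanocytes had 59.9 and 74.7 CPM of Dsp and 18.6 and 26.5 CPM of Jup.

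The promoters of Dsp and Jup are shown because these genes had closely similar patterns and were the 2 of the 10 with an entry in the RefSeq promoter table (GRCm38.p6, from 250 bases before to 50 after the start of the gene). Capitals mark every match to the motifs searched on both strands. For AP-1 the letters searched were TGANTCA. Those of the GRHL factors were AACCNGTT. For the KLF family they were CCACCC. Those of AP-2 were GCCNNNGGC. For C/EBP factors TTNCNNAA was searched. The TATA box was searched as TATAAA.
Dsp, chr13:38151044-38151343, plus strand: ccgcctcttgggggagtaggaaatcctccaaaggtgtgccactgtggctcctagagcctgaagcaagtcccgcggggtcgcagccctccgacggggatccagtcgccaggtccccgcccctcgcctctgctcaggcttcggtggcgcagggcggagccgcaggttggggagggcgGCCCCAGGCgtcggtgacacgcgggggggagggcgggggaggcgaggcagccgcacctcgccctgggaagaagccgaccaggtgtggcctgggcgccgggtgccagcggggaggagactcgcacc
Jup, chr11:100397741-100398040, minus strand: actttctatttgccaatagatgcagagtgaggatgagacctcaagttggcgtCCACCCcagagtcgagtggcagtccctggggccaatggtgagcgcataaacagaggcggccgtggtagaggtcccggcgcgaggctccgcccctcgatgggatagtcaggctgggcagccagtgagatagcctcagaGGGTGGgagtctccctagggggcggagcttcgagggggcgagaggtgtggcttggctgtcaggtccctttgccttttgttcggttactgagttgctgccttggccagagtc
The Dsp window is richer in G and C (73%) than that of Jup (60.7%). It holds 1 AP-2 match, at base 176, and the Jup window holds 2 KLF matches, at bases 53 and 190. Of all 32851 promoters of this length, 16.6% hold the AP-2 letters, 31.5% the KLF letters, 40.7% those of C/EBP, 13.6% those of TATA, 7.81% those of AP-1 and 2.09% those of GRHL. None of the motifs searched matched in both windows. The Dsp gene spans 38151294 to 38198577 on chromosome 13, and the Jup gene 100368958 to 100397763 on chromosome 11.

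The plakophilins differed in how they moved. Pkp1, the main plakophilin of the suprabasal layers, had 294 and 249 CPM in resting basal cells, 580 and 538 CPM in the transition and 657 and 637 CPM in differentiated cells. It rose by 1.14 ± 0.11 (adjusted p = 3.09e-06) and then by 0.32 ± 0.10 (adjusted p = 0.0329) on the log2 scale. Pkp3, a plakophilin of all epidermal layers, had 214 and 189 CPM, 200 and 193 CPM, and 271 and 260 CPM in these classes. Its first step did not pass the test (0.06 ± 0.09, adjusted p = 0.663), and its second did (0.54 ± 0.09, adjusted p = 0.000629). From resting basal to differentiated cells Pkp3 gained 0.60 ± 0.09 (adjusted p = 8.49e-05), and with cells under 5% mitochondrial UMIs this was 0.54 (adjusted p = 0.0555).

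Counted over all 10 genes, the transition had 6 higher, 1 lower and 3 that did not pass, against resting basal cells. Of all genes tested in that comparison, 16.7% were higher and 16.2% lower. The median log2 fold change of the 10 was 1.07, against -0.02 over all genes. From resting basal to differentiated cells 7 were higher, 2 lower (Dsg2 and Dsg3) and 1 did not pass (Dsc2), against a background of 29.1% higher and 29.9% lower. Here the median was 1.34 against -0.04 over all genes. Between transition and differentiated cells 6 were higher and 2 lower, against 17.4% and 15.8% of all genes, with medians of 0.42 and -0.04.

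**Figure D2:**
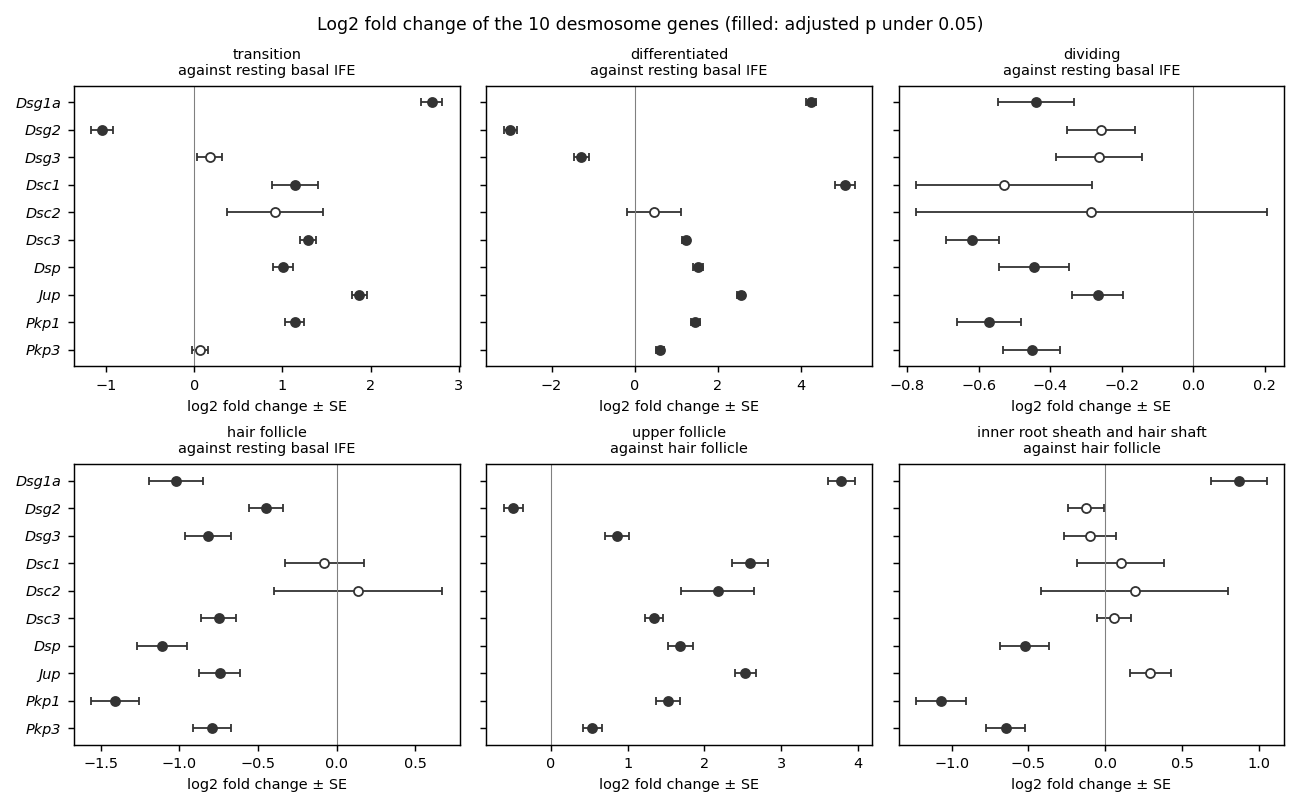
Log2 fold change of each desmosome gene in 6 comparisons, with the standard error as bars (edgeR's quasi-likelihood fit, 2 mice per class). Filled points have an adjusted p under 0.05. Dsc1 and Dsg1a have the largest gains in differentiated against resting basal cells (5.05 and 4.23), and 9 of the 10 genes are higher in the upper follicle than in the resting hair follicle.

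In terminally differentiated cells, which are few (47 and 62) and shallow (medians of 5134 and 9365 UMIs), 7 of the 10 genes were lower than in differentiated cells, 1 was higher and 2 did not pass. The background was 15.8% lower and 15.6% higher, and the medians were -1.52 for the 10 and -0.01 over all genes. Dsg1a had 141 and 143 CPM there, lower by 2.36 ± 0.15 (adjusted p = 9e-08), and Jup had 246 and 208 CPM, lower by 2.20 ± 0.10 (adjusted p = 6.31e-09). Dsc1 had 52.5 and 81.9 CPM. The gene that was higher was Dsg2, with 49.2 and 43.2 CPM, close to its basal level, and a log2 fold change of 2.58 ± 0.28 (adjusted p = 1.17e-05). Cdh3, the P-cadherin of basal cells, moved in the same direction (1.99 ± 0.20, adjusted p = 6.15e-06), from 16.9 and 16.0 CPM to 91.8 and 76.0 CPM. With cells under 5% mitochondrial UMIs the Dsg2 difference was 1.19 (adjusted p = 0.108). Of Cdsn, the corneodesmosin of the uppermost desmosomes, these cells had 485 and 228 CPM, against 39.0 and 35.4 CPM in differentiated cells. Basal IFE markers had a mean log2 enrichment over all other cells of -0.25 in this cluster, against -2.14 in the differentiated one. For hair follicle markers the values were -0.37 and -1.62, and for G2/M markers 0.14 and -2.68. Over all kept cells Dsg2 had 40.4 and 39.9 CPM and Jup 207 and 189 CPM, near the values here, whereas Dsg1a had 85.0 and 66.8 CPM. The part of RNA from basal or other cells in these values was not tested.

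The make-up of each family shifted along the same stages. Of the UMIs of the 3 desmogleins, Dsg1a had 30.025% and 33.2% in resting basal cells, 83.4% and 80.3% in the transition and 98.1% and 97.3% in differentiated cells. Dsg2 had 51.4% and 47.2% in resting basal cells, where it was the largest part, and 0.90% and 1.12% in differentiated cells. Dsg3 went from 18.5% and 19.6% to 1.01% and 1.53%. By UMI counts, the change of the leading desmoglein from Dsg2 to Dsg1a was thus already seen in the transition. The rank of Dsg3 among the 3 may depend on the annotation, as given above. The basal level of Dsg1a was not clearly above that of cells that are not KCs. When Dsg1a, Dsg1b and Dsg1c were summed, their share in resting basal cells was 34.2% on average, in place of 31.6%.

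For the desmocollins the leading isoform did not change. Dsc3 had 97.9% and 96.9% of their UMIs in resting basal cells, 97.8% and 97.5% in the transition, and 72.7% and 74.5% in differentiated cells. Dsc1 made up nearly all of the remainder, with 27.3% and 25.5% in differentiated cells. Dsc2 stayed at or under 0.752% in every IFE class and mouse. Of the plakophilin UMIs, Pkp1 had 57.9% and 56.8% in resting basal cells, 74.3% and 73.6% in the transition and 70.8% and 71.0% in differentiated cells. These shares were not tested. Each moved by more between resting basal and differentiated cells than it differed between mice.

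**Figure D3:**
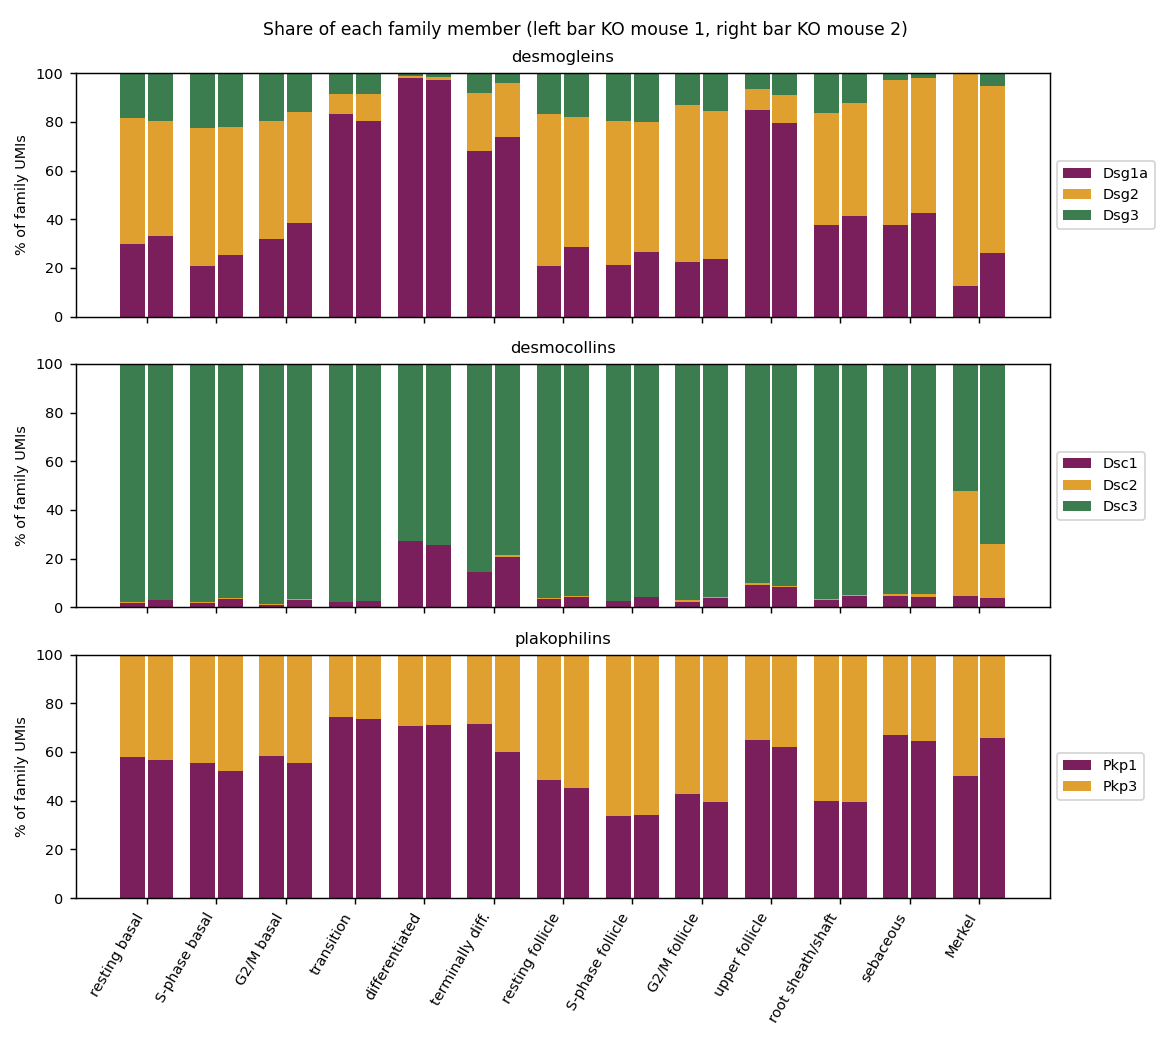
Share of each isoform among the UMIs of its family in 13 keratinocyte and Merkel cell classes, in percent. In each pair of bars the left is KO mouse 1 and the right KO mouse 2. Dsg1a takes over 80% of desmoglein UMIs in the transition and over 97% in differentiated IFE, while Dsc3 keeps over 72% of desmocollin UMIs in all IFE classes.

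The order of the changes was also read along an axis that does not use the borders between the IFE classes. It took only cells whose clusters had been named as non-dividing IFE. Its keratins were also among the naming markers, so it is not independent of the clusters. Each non-dividing IFE cell was placed by the share of Krt1 and Krt10 among its Krt1, Krt10, Krt5 and Krt14 UMIs. Dsg1a was at 39.1 and 43.3 CPM below 5% on this axis, at 69.4 and 59.8 CPM between 10% and 20%, and at 158 and 113 CPM between 20% and 40%, so that it had already risen while basal keratins still made up most keratin UMIs. Jup followed the same course, from 175 and 179 CPM below 5% to 467 and 354 CPM between 20% and 40%. Dsg2 did not fall until the bin from 20% to 40% (35.9 and 39.6 CPM, against 52.5 and 55.7 CPM in the bin before).

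Dsc1 made most of its gain, in CPM, at the far end. It was at 5.87 and 6.63 CPM below 5%, at 9.26 and 9.84 CPM between 5% and 10%, and at 12.6 and 13.6 CPM between 10% and 20%. Melanocytes had 6.77 and 8.20 CPM and dermal cells 14.5 and 18.7 CPM, so these low values are not clearly above cells that are not KCs. Dsc1 was then at 38.5 and 17.0 CPM between 40% and 60%, at 98.8 and 82.7 CPM between 80% and 90%, and at 213 and 221 CPM above 90%. Dsg3 fell in level near the end. It was at 16.8 and 23.2 CPM between 60% and 80% and at 5.24 and 6.18 CPM above 90%, and the mice differed in the bin between, with 8.76 and 19.3 CPM. Dsc3 reached its highest level before the end, at 855 and 810 CPM between 60% and 80%, and had 734 CPM in both mice above 90%. Among the 9 genes other than the sparse Dsc2, Pkp3 moved least between the end bins on the log2 scale, from 221 and 190 CPM in the first bin to 252 and 249 CPM in the last. On a second axis, from Krtdap, Sbsn and Dmkn against Col17a1, Itga6 and Krt15, the change of Pkp3 between the end bins was -0.02 in place of 0.28 on the log2(CPM + 1) scale, and no other gene of the 10 changed direction. The first bin of that axis held only 20 and 8 cells, with 38 and 15 Pkp3 UMIs. From the next bin on, Pkp3 went from 208 to 268 CPM on average, so the turn rests on those few cells.

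**Figure D4:**
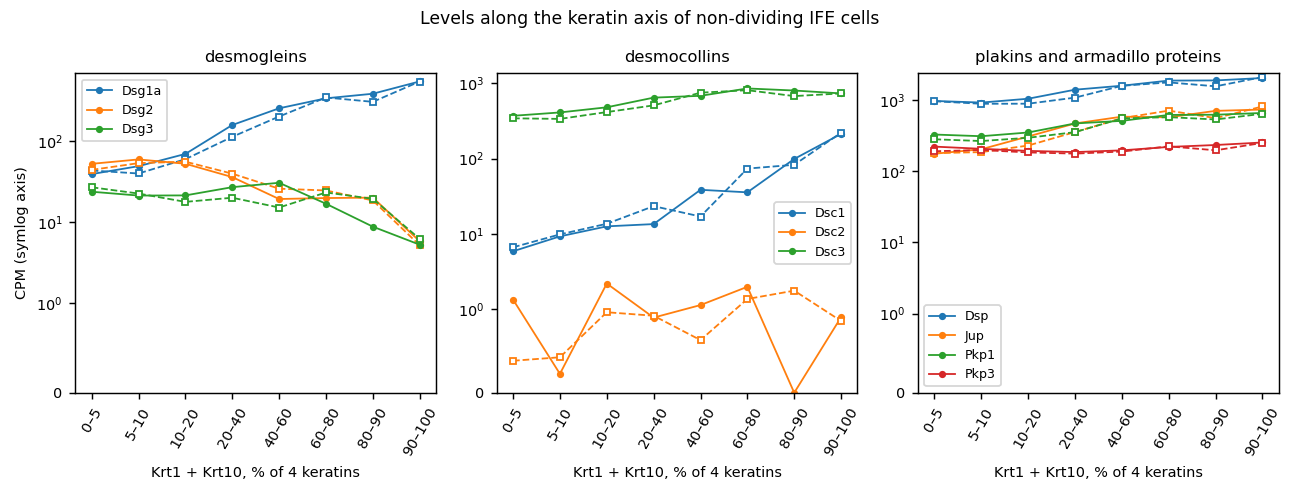
Levels of the desmosome genes in non-dividing IFE cells along the share of Krt1 and Krt10 among 4 keratins (percent, 8 bins), as CPM on a symmetric log axis. Solid lines with filled circles are KO mouse 1 and dashed lines with open squares KO mouse 2. Dsg1a rises from the third bin on, Dsg2 and Dsg3 drop to 5.78 and 5.24 CPM in mouse 1 in the last bin, and Dsc1 is highest in the last bin.

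Single cells showed how far the isoforms overlapped. Cells with at least 3000 UMIs were thinned to 3000 UMIs, and shallower cells were left out. Dsg1a was then detected in 9.63% and 10.2% of resting basal cells, in 45.6% and 42.7% of transition cells and in 84.6% and 75.1% of differentiated cells, against 4.26% and 6.78% of melanocytes. Without thinning, over all cells, these shares were 24.7% and 28.0%, 84.4% and 82.8%, and 99.5% and 98.6%, against 10.9% and 18.5%. Shares of cells with both of 2 genes, thinned or not, are of cells with at least 3000 UMIs, here and below. In the transition, 24.4% and 20% of cells had UMIs of both Dsg1a and Dsg3 without thinning, and 4.0% and 3.9% had Dsg3 alone. In resting basal cells 4.6% and 5.5% had both. Transition cells are deeper (medians of 13146 and 13009 UMIs against 8665 and 8858), and after thinning both genes were found together in 2.5% and 2.7% of transition cells and in 0.4% and 0.9% of basal cells.

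UMIs of Dsc1 and Dsc3 were found in the same cells, to an extent that depended on depth. In differentiated cells 75.8% and 77.0% had UMIs of both, 18.1% and 19.7% had Dsc3 alone, and 5.5% and 3.3% had Dsc1 alone. After thinning the shares with both were 25.8% and 24.4%, those with Dsc3 alone 54.4% and 55.9%, and those with Dsc1 alone 14.3% and 10.3%. Whether both were found together more or less often than their separate detection would give was not tested. The differentiated class was the deepest of all, with medians of 23567 and 22452 UMIs, and the unthinned shares are not compared with other classes.

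Dividing basal cells had less of most desmosome transcripts than resting ones. Of the 10 genes 6 were lower (Dsg1a, Dsc3, Dsp, Jup, Pkp1 and Pkp3), none was higher and 4 did not pass, against 11.3% of all genes lower and 15.1% higher. Dsc3 had 241 and 211 CPM in S-phase and 258 and 242 CPM in G2/M basal cells, lower than in resting cells by 0.62 ± 0.08 on the log2 scale (adjusted p = 3.87e-05). Pkp1 was lower by 0.57 ± 0.09 (adjusted p = 0.000363) and Dsp by 0.44 ± 0.10 (adjusted p = 0.00448), with medians of -0.44 over the 10 genes and -0.01 over all genes. Jup was uneven between the phases, with 116 and 130 CPM in S phase and 163 and 169 CPM in G2/M, which is the level of resting cells. Dsg1a was uneven too, with 20.3 and 22.3 CPM in S phase and 31.4 and 40.8 CPM in G2/M, against 33.6 and 37.1 CPM in resting cells. Its S-phase values lay below the resting values in both mice, and its G2/M value only in mouse 1. The S-phase basal cluster had a mean log2 enrichment of 0.68 for S-phase markers, just over the limit of 0.6 for that name. A cluster of 864 cells led by Cdc20 and Cenpa took no name and entered no comparison.

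When the fit carried a block for the mouse, 3 more genes passed as lower in dividing basal cells, so 9 of 10. These were Dsg2 (-0.26, adjusted p = 0.00464), Dsg3 (-0.28, adjusted p = 0.0143) and Dsc1 (-0.53, adjusted p = 0.036). Over all genes the calls of this comparison went from 3134 to 5025 with the block. With cells under 5% mitochondrial UMIs, which left 8545 cells and no S-phase basal class, 9 of the genes were tested and none passed, with a median of -0.23.

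The resting hair follicle had less of the desmosome genes than resting basal IFE. Of the 10 genes 8 were lower, none was higher and 2 (Dsc1 and Dsc2) did not pass, where 14.4% of all genes were lower and 16.3% higher. The median was -0.77, against 0.00 over all genes. Of the 2 resting follicle clusters, that led by Shh had a mean log2 enrichment of 0.56 for S-phase markers. This is just under the limit of 0.6 for an S-phase name. The resting basal clusters had -1.12, -0.35 and -0.74. How far the differences go with the cell cycle was not tested. Pkp1 differed most, with 120 and 110 CPM in the follicle, lower by 1.41 ± 0.15 (adjusted p = 1.13e-08), and Dsp had 435 and 457 CPM, lower by 1.11 ± 0.16 (adjusted p = 2.07e-06). Pkp3 was at 128 and 134 CPM, so that in the follicle it took 51.5% and 54.8% of plakophilin UMIs. Dsg1a was at 17.1 and 21.8 CPM, close to its level in melanocytes. By UMI counts Dsg2 was the largest desmoglein there, with 62.3% and 53.5% of the family, at 50.8 and 40.7 CPM. The limit on the count of Dsg3 applies here too.

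Follicle clusters differed among themselves in Dsg3. It was at 21.3 CPM on average in the resting follicle cluster led by Ncam1, Bdnf and Sema3e, and at 6.0 CPM in the one led by Shh. Pkp1 differed in the same direction, with 170 and 60.5 CPM. The clusters also differed in S-phase markers, with mean log2 enrichments of -0.73 and 0.56. Whether the differences in Dsg3 and Pkp1 go with the cell cycle was not tested. For Dsg3 the first of these clusters, with 1468 cells against 1116, was at the level of resting basal IFE (20.8 and 21.9 CPM). When doublets were removed before clustering, Dsg3 was no longer lower in the resting follicle (-0.33, adjusted p = 0.107, against -0.82 ± 0.15, adjusted p = 4.19e-05).

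In the inner root sheath and hair shaft, 3 genes were lower than in the resting follicle (Pkp1, Pkp3 and Dsp), 1 was higher (Dsg1a) and 6 did not pass, against 20.9% of all genes lower and 20.1% higher. The median was -0.02, against -0.03 over all genes. Markers of G2/M (mean log2 enrichment 1.10) and of S phase (0.73) were also enriched in this class. Both values pass the limits of 1 and 0.6 that named the dividing basal and follicle clusters. The resting follicle clusters had -2.625 and -1.89 for G2/M markers. How far the differences below go with cell division was not tested. Pkp1 had 51.0 and 54.0 CPM, the lowest of the KC classes, lower by 1.07 ± 0.16 (adjusted p = 2.96e-06). Dsg1a had 33.1 and 35.6 CPM, higher by 0.87 ± 0.18 (adjusted p = 0.000241). Jup, at 130 and 124 CPM, passed only with the mouse as a block (0.29, adjusted p = 0.0201, against 0.0807). These calls depended on the cells kept. Under 5% mitochondrial UMIs the log2 fold changes of Pkp1, Pkp3 and Dsp were 0.03, 0.06 and 0.17, and none passed, whereas Dsg3 passed as higher (1.17, adjusted p = 0.00982). With the desmosome and adherens junction genes among the variable genes, Dsp did not pass (-0.37, adjusted p = 0.097).

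The upper follicle, the Krt79-expressing duct through which the hair canal opens, had high levels of most of the 10 genes. Its cluster was led by Krt79 and Krt75. Markers of the inner root sheath and hair shaft were enriched in it too (mean log2 enrichment 0.91, against 2.01 for the upper follicle markers). Whether the class holds cells of other follicle parts was not tested. Against the resting follicle 9 genes were higher and 1 (Dsg2) was lower, where 18.6% of all genes were higher and 16.4% lower, and the median was 1.61 against -0.02. Dsg1a had 315 and 227 CPM, a log2 fold change of 3.78 ± 0.17 (adjusted p = 1.25e-16). Dsc1 had 61.6 and 48.7 CPM (2.59 ± 0.23, adjusted p = 2.1e-10), and Jup 655 and 590 CPM (2.53 ± 0.14, adjusted p = 5.36e-15). Dsg3, with 24.4 and 25.04 CPM, was as high as in any class while Dsg1a was also high, and 28.4% and 29.2% of cells had UMIs of both (1.94% and 5.03% after thinning). Under 5% mitochondrial UMIs the Dsg2 call was lost (-0.24, adjusted p = 0.396). Without doublets Dsg3 was not called in this comparison (0.21, adjusted p = 0.335, against 0.86 ± 0.16). Dsg1a had 85.0% and 79.4% of desmoglein UMIs and Dsc1 9.08% and 8.19% of desmocollin UMIs. No test of the upper follicle against the IFE classes was made.

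In the upper follicle Dsc2 had 32 and 19 UMIs, or 4.98 CPM (3.41 to 7.03) and 2.92 CPM (1.76 to 4.56), above the resting follicle by 2.17 ± 0.48 (adjusted p = 0.00074). Pkp2, the plakophilin of simple epithelia and the heart, moved with it, with 9.81 and 7.07 CPM and a log2 fold change of 3.41 ± 0.35 (adjusted p = 6.97e-09). Both stayed far below Dsc3 (612 and 543 CPM) and Pkp1 (356 and 308 CPM).

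Sebaceous cells had 8 of the 10 genes lower and 1 higher than resting basal IFE, against 23.5% of all genes lower and 23.1% higher, with medians of -1.03 and -0.11. Dsg3 was the extreme, with 2 and 3 UMIs in all (0.895 and 0.970 CPM), as in melanocytes, and it was lower by 4.44 ± 0.35 (adjusted p = 5.13e-12). The gene that was higher was Dsc2, with 4 and 10 UMIs (1.93 ± 0.63, adjusted p = 0.0126). Pkp2 had 21.5 and 16.5 CPM there, against 0.280 and 0.157 CPM in resting basal cells, a log2 fold change of 6.46 ± 0.39 (adjusted p = 2.83e-14). Dsg1a, at 12.97 and 21.01 CPM, was as in melanocytes.

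Merkel cells, the touch receptors of the epidermis, numbered 20 in each mouse and entered no planned comparison. They had 9 and 6 UMIs of Dsc2, or 48.7 CPM (22.3 to 92.5) and 31.2 CPM (11.4 to 67.9), both above the highest value of any other class. Pkp2 was at 27.1 and 26.0 CPM, from 5 UMIs in each mouse, and Dsg2 at 75.8 and 67.5 CPM, also its highest level. Dsg3 had 0 and 1 UMI. Of desmocollin UMIs, Dsc2 had 42.9% and 22.2%, out of 21 and 27 in all. These counts are small, and the Dsc3 UMIs of Merkel cells (59.6 and 104 CPM) were near those of T cells and Langerhans cells.

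Resting basal IFE was compared with melanocytes, Langerhans cells and T cells as cells that should not build desmosomes. Of the 10 genes 8 were higher in basal cells, none was lower and 2 (Dsc1 and Dsc2) did not pass, where 27.8% of all genes were higher and 19.8% lower. The median was 2.82, against 0.11 over all genes. Dsg3 and Dsg2 had the largest differences among those that passed (3.59 ± 0.24, adjusted p = 8.86e-14, and 3.54 ± 0.16, adjusted p = 5.17e-18), and Dsg1a the smallest (1.03 ± 0.20, adjusted p = 5.7e-05). Under 5% mitochondrial UMIs the difference of Dsg1a was 0.49 (adjusted p = 0.0875).

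The make-up of these transcripts differed between the classes that are not KCs. In melanocytes Dsg1a had 81.8% and 86.8% of desmoglein UMIs and Dsc1 24.4% and 23.6% of desmocollin UMIs, which is nearer to differentiated than to basal IFE in both families. In dividing melanocytes the shares were 34.3% and 46.7% for Dsg1a and 2.44% and 3.48% for Dsc1, nearer to basal IFE. Langerhans cells had 73.2% and 67.2% of Dsg1a and 7.09% and 11.9% of Dsc1, and T cells, with 10 and 14 desmoglein UMIs, 60% and 57.1% of Dsg1a. In T cells Pkp3 had 98.4 CPM (74.1 to 128) and 143 CPM (109 to 184), against 30.4 and 33.0 CPM in Langerhans cells and 11.5 and 10.7 CPM in melanocytes. After thinning 32.7% and 34.2% of T cells had a Pkp3 UMI, against 2.13% and 3.66% of melanocytes, whereas for Pkp1 the shares of T cells were 1.92% and 18.4%. Pkp3 took 72.4% and 70.2% of the plakophilin UMIs of T cells, out of 76 and 84, more than in any other class. Pkp3 in T cells was not tested against another class, and was picked out after its values were seen.

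The other genes of the desmosome and of the adherens junction give the setting. Of 9 other desmosome genes, 6 passed the filter on low counts in the IFE fit. From resting basal to differentiated cells 5 of these rose and 1 fell, against 29.1% and 29.9% of all genes. Dsg1b had the largest gain (4.51). The lowest value was that of Pkp4, a plakophilin relative that is also found at adherens junctions, which fell by 1.47 ± 0.14 (adjusted p = 6.79e-07). Perp, a membrane protein that desmosomes need, was the most abundant of the list, with 1592 and 1445 CPM in resting basal and 5835 and 5331 CPM in differentiated cells, and rose by 2.08 ± 0.11 (adjusted p = 2.14e-09). In dividing basal cells 1 of the 6 was lower and none was higher, which is near the 11.3% of all genes that were lower.

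Of 9 adherens junction genes, all tested, 5 rose, 2 fell and 2 did not pass from resting basal to differentiated cells, with a median of 0.58, against 29.1% of all genes higher and 29.9% lower. Nectin4 had the largest gain (5.22 ± 0.17, adjusted p = 6.53e-11), from 3.50 and 5.34 to 160.5 and 138 CPM. Cdh3 had the largest loss, falling by 2.56 ± 0.13 (adjusted p = 1.37e-09). Both junction types had genes that rose and genes that fell, as had the genes tested in general. Against the resting follicle, 7 adherens junction genes were higher in the upper follicle and 1 was lower, where 18.6% of all genes were higher and 16.4% lower.

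The 10 genes did not vary as 1 block across the 36 sums of 18 classes and 2 mice. On the log2(CPM + 10) scale Dsp and Pkp1 were most alike (Pearson r = 0.966), followed by Dsc3 and Dsp (0.945) and by Dsp and Jup (0.939). Among the 10, Dsg1a was most like Dsc1 (0.900) and then Jup (0.881). Dsg2 and Dsc2 stood apart. The highest r of Dsg2 was 0.560, with Dsg3, and that of Dsc2 was 0.397, with Dsg2. Their lowest were -0.221 between Dsg2 and Dsc1 and -0.225 between Dsg3 and Dsc2. Except in Merkel cells (48.7 and 31.2 CPM, from 9 and 6 UMIs), Dsc2 was at most 4.98 CPM, so its r rests mainly on those sums. Outside the junction lists, among 8286 genes with a mean of at least 10 CPM, the genes most like Dsg1a were Tmem45a (0.954), Krt77 (0.951) and Tmprss4 (0.932). Those most like Dsc1 were Klk5 (0.952), Klk7 (0.934) and Orm1 (0.929), and those most like Dsg3 were Plet1 (0.865), Net1 (0.847) and Cd9 (0.838). Dsc3 was most like Lad1 (0.940), Trim29 (0.937) and Ppp1r13l (0.933), and Pkp1 like Rapgefl1 (0.937), Dmkn (0.932) and Lad1 (0.928). Classes of the same mouse share a library, so these values describe likeness over 36 sums and carry no test.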

How the data were processed

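Epidermal cells of 2 male Chrm3 KO mice were profiled on the 10x platform, 1 library per mouse. The sample labels name chemistry v1 and the study's methods v3.1. The authors deposited raw UMI counts per gene and cell from Cell Ranger 3.0.2 on mm10, and the annotation they counted on is not given in the sources used here. The filter on cells was 900 to 7700 genes and mitochondrial UMIs below 10%. Seurat 5.3.0 integrated both libraries (2000 variable genes, 30 dimensions, resolution 0.8), with the desmosome and adherens junction genes kept out of the variable genes and of the naming. Clusters were named from fixed markers, with thresholds set after the clusters were seen. Doublets were scored with Scrublet and kept, and removed in an alternative. Counts were summed per mouse and class and tested with edgeR 4.0.16 (TMM scaling, filterByExpr, quasi-likelihood test, Benjamini-Hochberg adjustment over all genes) at an adjusted p under 0.05. A test on simulated data came first, with 200 genes changed by a log2 fold of 2. It recovered from 66% of them (terminally differentiated against differentiated IFE) to 96.5% (transition against resting basal IFE). The simulated counts had no mouse effect, so this test could not check the pairing of classes. Classes of 1 mouse come from the same animal, so they are paired: over 153 pairs of classes the mouse differences of 2974 genes correlated with a median r of 0.241 (-0.0136 to 0.762). The 10 genes are named in every comparison, and other genes where they were extreme in their list or likest to a desmosome gene. The 10 genes, the lists and the tests were chosen with earlier results of these data known.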

Additional observations from a re-analysis of the deposited data

How the results depend on the processing

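Of the alternatives, the limit of 5% mitochondrial UMIs moved the most. It left 8545 cells and no transition, S-phase basal or Merkel class, so those comparisons have no value under it, and without integration no transition class formed. Under it the genes called numbered 3522 in differentiated against resting basal IFE (7010 as reported), 1026 in terminally differentiated cells (3733), 505 in dividing basal cells (3134), 1452 in the root sheath and shaft (5842) and 4172 in sebaceous cells (6630). The sign of the log2 fold change turned for Pkp4 in the hair follicle against basal IFE (0.54). In the root sheath and shaft it turned for Pkp1 (0.03), Pkp4 (-0.04), Pkp3 (0.06), Dsp (0.17), Ppl (0.14) and Dsg3 (1.17). Pkp1, Pkp3 and Dsp did not pass there under the limit, so their calls were lost. Dsg3, which was not called as reported, passed. The cause was not tested, and fewer cells enter this setting. Calls also lost under it were Dsg2 in the upper follicle (-0.24, adjusted p = 0.396) and Dsg1a in sebaceous cells (-0.37, adjusted p = 0.359). Further losses, given above, were all 6 calls in dividing basal cells and Dsg3 and Pkp3 from resting basal to differentiated cells. Dsg2 in terminally differentiated cells and Dsg1a against cells that are not KCs were lost too. With the mouse as a replicate block, 5025 genes were called in dividing basal cells, and Dsg2, Dsg3 and Dsc1 there and Jup in the root sheath and shaft were gained. Pkp3 reversed on the second axis (-0.02), where the first bin held 20 and 8 cells.

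The Dsg1a share of resting basal cells (31.6%) was 26.1% under the mitochondrial limit and 34.2% with Dsg1b and Dsg1c added. In differentiated cells it was 97.7%, against 98.7% with thinned cells, 91.8% without integration, 92.9% under the limit and 98.4% with desmosome genes among the variable genes. The Dsc1 share there was 26.4%, against 23.6%, 13.1%, 21.8% and 28.9% in the same order. The Pkp1 share of basal cells was 57.3%, against 56.5% thinned and 55.7% under the limit, and that of differentiated cells 70.9%, against 71.6%, 72.7%, 70.8% and 71.7% in the same order and 71.5% without doublets. Only 2 mice, 47 and 62 terminally differentiated cells and 20 Merkel cells in each mouse limit these values.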
